A study of Saccharomyces cerevisiae with 14 samples.

Results

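The genes described here encode the a-factor mating pheromone (MFA1, MFA2), the pheromone receptors (STE2, STE3), G protein subunits (STE4, STE18), the pheromone protease Bar1 (BAR1), the mating MAP kinase (FUS3) and a cell fusion protein (FUS1). The 9 genes were chosen by name as members of the mating pathway, and MFA1 among them because of its higher signal at 60 h. Each was read by the brightest probe set annotated to that gene alone. Each had 1 such probe set. They are 9 of 5449 S. cerevisiae genes with a probe set of their own, which were read by 5498 of the 10928 probe sets on the array. The values that chose MFA1 are those of 60 h against the earlier times, so every MFA1 comparison that holds 8, 30 or 60 h is a description without a test.

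Lager yeast strain CB11, a production strain of brewing yeast, was sampled from 1 full-scale brewery wort fermentation 8, 30, 60, 80 and 102 h after the yeast had been added (pitched). The yeast batch had already been through several fermentations, and all samples shared that batch, a malt wort with a sugar adjunct and in-line oxygenation before filling. The 14 single-colour Affymetrix arrays held biotin-labelled RNA. There were 2 arrays for 30 h and 3 for every other time. The labels call the samples of a time triplicates of 1 vessel and name no separate cultures, so p-values below measure only how far these samples differ, and that may be technical variation. Lager yeasts are hybrids of S. cerevisiae and a related species, and the signal of a gene can include RNA from either parental genome. Because RNA came from whole samples, a lower signal from fewer cells of a kind and one from less RNA per cell cannot be told apart.

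Haploid budding yeast cells come in mating types a and alpha. Cells of type a make a-factor and carry Ste2, the receptor for alpha-factor, whereas alpha cells make alpha-factor and carry Ste3, the receptor for a-factor. Binding of pheromone frees the Ste4-Ste18 dimer of a G protein, which switches on a kinase cascade ending in Fus3, and this arrests the cell cycle and induces genes for cell fusion. In cells that hold both mating types the a1-alpha2 repressor shuts off haploid-specific genes and alpha2 shuts off a-specific genes. Brewing strains usually carry several copies of each chromosome and are multiplied by budding.

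Signals below are intensities after quantile normalization, given in the order of the replicate numbers. A probe set was called above background on an array when its signal passed the 95th percentile of the dimmer part of all probe sets there, which lay between 22.0 and 22.2. By this measure STE18 was below background on all 14 arrays and was not tested. The other 8 genes passed the filter. MFA1, MFA2 and BAR1 were above background on 13 of 14 arrays, FUS3 on 12, and STE2, STE3, STE4 and FUS1 on all 14. BAR1 and STE3 lay nearest to background among the tested genes, with median signals of 1.50 and 1.98 times the threshold. The medians of FUS3, STE2, MFA2 and FUS1 were 2.52, 2.65, 2.83 and 3.71 times the threshold, and those of STE4 and MFA1 were 7.34 and 7.56 times. Medians over all times do not show low early values. FUS3 lay at 1.16, 1.07 and 0.87 times the threshold at 8 h. MFA1 lay at 1.18 and 1.25 times on 8 h replicates 2 and 3, and at 0.75 times on 30 h replicate 2. These multiples describe each probe set against background. Probe sets differ in efficiency, so they do not rank the transcripts.

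**Figure D1:**
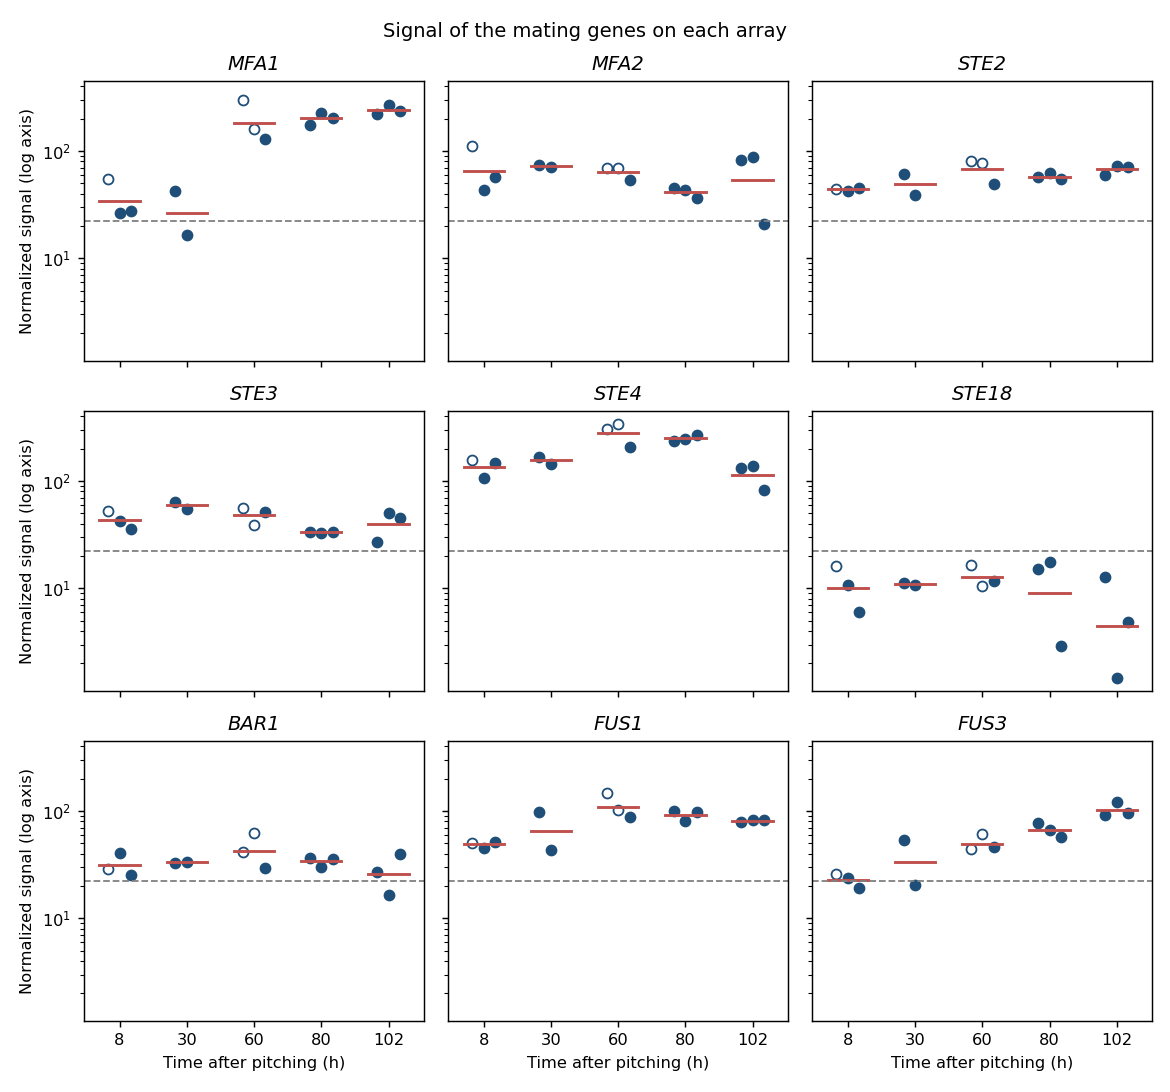
Normalized signal (log axis) of the 9 genes on each of the 14 arrays by time after pitching in hours. Points are arrays, open points are the 3 arrays with low 5′ signal, red bars are means of the log2 signal and the dashed line is the background threshold. MFA1 lies between 16.5 and 54.3 up to 30 h and between 130 and 296 from 60 h on, FUS3 is highest at 102 h, and every STE18 point is under the line.

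The quality of the RNA was not the same on all arrays. As a measure of intact RNA, the log2 ratio of 5′ to 3′ signal averaged over 8 control genes was -3.28 on 8 h replicate 1, -4.41 on 60 h replicate 1 and -1.85 on 60 h replicate 2, against -1.18 to -0.51 on the other 11 arrays. Values without these 3 arrays are given with most of the results that involve 8 h or 60 h, in part as a group where they changed no call. They leave a single array at 60 h, whose spread is assumed to be like that of the other times. Deposited array medians ran from 22.6 to 38.7, and arrays of the same time correlated at 0.903 to 0.994.

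MFA1 encodes one of the 2 precursors of a-factor, a short peptide that is farnesylated, trimmed and exported. Its signals were 54.3, 26.2 and 27.6 at 8 h and 42.2 and 16.5 at 30 h. They were 296, 161 and 130 at 60 h, 174, 226 and 204 at 80 h, and 221, 270 and 237 at 102 h. Every array from 60 h on was above every earlier array, while the 3 later times overlapped one another and so did 8 h and 30 h. The only array below the background threshold was 30 h replicate 2.

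In order of level, the MFA1 means were 29.3 ± 18.2 at 30 h (SD, n = 2), 36.0 ± 15.8 at 8 h (SD, n = 3), and 196 ± 88.3, 202 ± 26.1 and 243 ± 25.2 (SD, n = 3 each) at 60, 80 and 102 h. In this order 8 h and 60 h were the only neighbours whose arrays did not overlap. On the log2 scale the mean of MFA1 was 2.80 higher at 60 h than at 30 h and 2.93 higher at 80 h than at 30 h. At 60 h it was 0.13 below the 80 h mean. Without the 3 arrays of low 5′ signal the first of these differences was 2.31, which rests on the array at 130. It was 3.48 without 30 h replicate 1 and 2.12 without 30 h replicate 2, so the 2 early arrays move its size by over 1.5 times as a fold.

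At 102 h the mean of MFA1 was 2.83 above that of 8 h on the log2 scale, a 7.11-fold difference. On 8 h replicates 2 and 3 MFA1 lay near background, so the size of this fold rests in part on values there. The 8 h arrays are among those for whose low values the gene was chosen, so no test is given. Over the 28 other settings tried this value ran from 2.64 to 3.30, and without the 3 arrays of low 5′ signal it was 3.17. The later step can be tested, since neither time entered the choice. From 80 h to 102 h MFA1 differed by 0.27 ± 0.37 (log2 ± SE, limma adjusted p = 0.665, n = 3 each), and on the authors' scale it was -0.09.

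**Figure D2:**
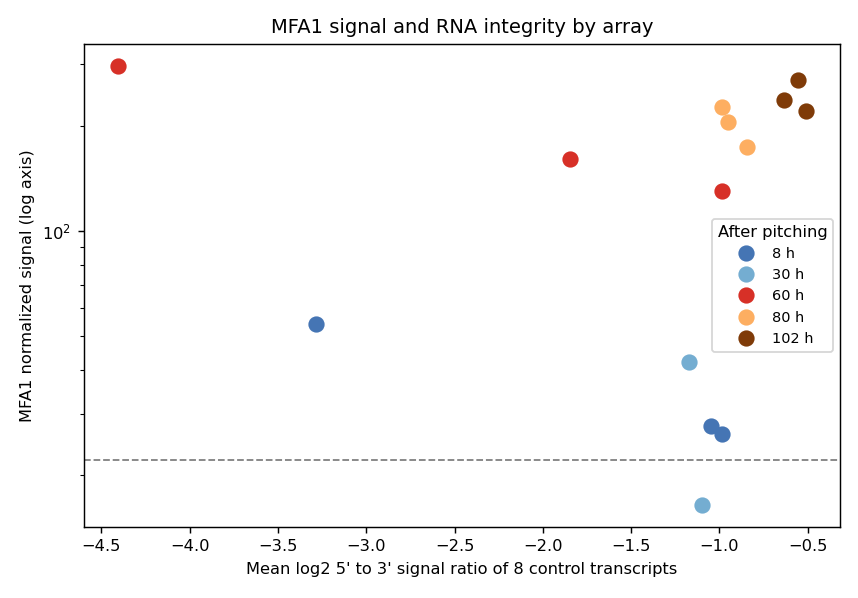
MFA1 normalized signal (log axis) against the mean log2 ratio of 5′ to 3′ signal over 8 control genes, 1 point per array, coloured by time after pitching. The 60 h arrays at -4.41, -1.85 and -0.99 gave 296, 161 and 130, and the dashed line is the background threshold.

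Within the 2 times that hold arrays of low 5′ signal, MFA1 was highest on the array with the lowest ratio, as the plot of MFA1 against the ratio shows. At 60 h the signal was 296 where the ratio was -4.41 and 130 where it was -0.99. At 80 and 102 h, where ratios were -0.99 to -0.51, MFA1 lay between 174 and 270. With the ratio as a covariate in the fit, the log2 difference of 60 h against 30 h was 2.30 and that of 80 h against 60 h was 0.70. The part of RNA quality in the size of the 60 h values was not tested beyond these fits.

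MFA2, which encodes the other a-factor precursor, did not follow MFA1. Its signals were 112, 43.0 and 56.6 at 8 h, 73.6 and 71.5 at 30 h, and 68.7, 70.0 and 53.9 at 60 h. At 80 h they were 45.6, 42.9 and 36.5, and at 102 h they were 82.7, 87.4 and 20.8. The 80 h arrays were all below those of 30 h and 60 h, whereas the 102 h arrays ran from the lowest MFA2 value of the series to above every 30 h array. MFA2 did not pass the F-test over the 5 times (limma adjusted p = 0.555) or any of the 6 comparisons. At 102 h it differed from 8 h by -0.28 ± 0.47 (limma adjusted p = 0.629), and leaving out the 3 arrays gave 0.11. Leaving out 1 array at a time gave -0.64 to 0.39, the highest without 102 h replicate 3. Its sign therefore depends on single arrays at both times.

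The 2 a-factor genes were set against each other within each array. The log2 ratio of MFA1 to MFA2 signal was 2.18 ± 1.15 at 102 h and -0.93 ± 0.19 at 8 h (SD, n = 3 each), a difference of 3.12. The lowest 102 h array was at 1.42 and the highest 8 h array at -0.72, so the times did not overlap. On 102 h replicate 3 MFA2 was at 20.8, below background. The 102 h mean, its SD and the size of the difference rest in part on that array. No test is given, because the 8 h values of MFA1 are among those for which it was chosen. The ratio shows unequal change of the 2 probe sets and says nothing of which transcript was more abundant.

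STE2 encodes the alpha-factor receptor of a cells. Its signals were 43.8, 42.8 and 44.8 at 8 h, 61.2 and 38.7 at 30 h, 81.2, 77.2 and 49.1 at 60 h, 57.1, 61.7 and 54.4 at 80 h, and 60.2, 71.6 and 70.2 at 102 h. All arrays from 60 h on were above the 8 h arrays, and the 30 h arrays spanned both. STE2 was 0.62 ± 0.23 higher at 102 h than at 8 h on the log2 scale (limma adjusted p = 0.038), a 1.53-fold difference. The call held in 18 of 28 other settings, with adjusted p from 0.012 to 0.102. It was lost without any single 8 h or 102 h array, with adjusted p between 0.0502 and 0.102, without 80 h replicate 1 or 2 (0.0510 and 0.0517), and on the authors' scale (0.0691). Without all 3 arrays of low 5′ signal it was kept, at 0.62 (adjusted p = 0.0279).

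STE3 encodes the a-factor receptor of alpha cells, and its values did not move with those of STE2. Its signals were 52.4, 42.4 and 35.8 at 8 h, 63.4 and 55.3 at 30 h, 55.6, 38.9 and 51.6 at 60 h, 33.6, 32.6 and 33.2 at 80 h, and 26.8, 50.5 and 45.3 at 102 h. The 80 h arrays were close together and below all arrays of 8, 30 and 60 h, while those of 102 h lay on both sides of them. STE3 was lower at 80 h than at 30 h by -0.84 ± 0.30 (log2 ± SE, limma adjusted p = 0.047, n = 3 and 2). This held in 18 of 28 other settings, with adjusted p from 0.0058 to 0.185. It was lost without either 30 h array (0.185 and 0.135), any 80 h array (0.0914 to 0.103), 8 h replicate 2 or 3 (0.0615 and 0.0527), or 102 h replicate 3 (0.0564). At 102 h STE3 differed from 8 h by -0.13 ± 0.26 (limma adjusted p = 0.71), and leaving out the 3 arrays gave 0.02 (adjusted p = 0.961).

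STE4 encodes the beta subunit of the mating G protein, which carries the signal to the kinases. Its signals were 157, 107 and 146 at 8 h, 168 and 143 at 30 h, 303, 340 and 207 at 60 h, 233, 244 and 270 at 80 h, and 131, 138 and 81.6 at 102 h. The 60 h and 80 h arrays overlapped each other and were above all others, and every 102 h array was below every 30 h array. STE4 fell from 80 h to 102 h by 1.13 ± 0.23 on the log2 scale (limma adjusted p = 0.0073, n = 3 each), a 2.18-fold decrease. All 28 other settings kept this call, with log2 values from -1.44 to -0.88 and adjusted p from 2.4e-04 to 0.037. The fall uses no array of low 5′ signal.

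The earlier rise of STE4 was less firm. From 30 h to 60 h it was 0.84 ± 0.26 (log2 ± SE, limma adjusted p = 0.028, n = 2 and 3), a 1.79-fold difference, and the call held in 21 of 28 other settings. Without the 3 arrays of low 5′ signal the value was 0.42 (adjusted p = 0.285). The call was also lost without 30 h replicate 1 or 2 (adjusted p 0.0585 and 0.203) and without 60 h replicate 1 or 2 (0.0552 and 0.0924). STE4 at 102 h differed from 8 h by -0.24 ± 0.23 (limma adjusted p = 0.397), and leaving out the 3 arrays gave -0.13 (adjusted p = 0.601).

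STE18 encodes the gamma subunit, the partner of Ste4 that anchors the dimer to the membrane. Its signal ran from 1.46 to 17.4 over the 14 arrays, with a median of 10.9, and its means by time lay between 6.36 and 12.8. No array reached the threshold of 22.0 to 22.2, so nothing can be read from its order. The 2 subunits of the dimer therefore differed in whether their probe sets were measurable here, not in a tested change.

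BAR1 encodes a secreted protease of a cells that cleaves alpha-factor. Its signals were 28.7, 40.9 and 25.6 at 8 h, 32.6 and 33.8 at 30 h, 41.5, 62.9 and 29.1 at 60 h, 36.5, 30.3 and 35.5 at 80 h, and 27.0, 16.4 and 39.5 at 102 h. Every pair of times overlapped. BAR1 did not pass the F-test (limma adjusted p = 0.453) or any of the 6 comparisons, and at these signals it was near background throughout.

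FUS3 encodes the MAP kinase at the end of the mating cascade. Its signals were 25.8, 23.7 and 19.2 at 8 h, 53.6 and 20.6 at 30 h, 44.4, 60.4 and 45.7 at 60 h, 77.8, 66.6 and 57.6 at 80 h, and 90.8, 119.8 and 94.7 at 102 h. At 8 h 2 of 3 arrays and at 30 h 1 of 2 arrays were above background, and every 102 h array was above every array of the other times. FUS3 rose from 8 h to 102 h by 2.15 ± 0.31 (log2 ± SE, limma adjusted p = 1.0e-04, n = 3 each), a 4.44-fold difference. The 8 h signals of FUS3 lay near background, so the size of this fold rests on values there. All 28 other settings kept the call, with log2 values from 2.02 to 2.24 and adjusted p from 1.2e-05 to 8.5e-04. The highest of these values came from leaving out the 3 arrays.

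Smaller steps of FUS3 were less certain. It was 1.01 ± 0.34 higher at 80 h than at 30 h (log2 ± SE, limma adjusted p = 0.041, n = 3 and 2). This held in 17 of 28 other settings, and without 30 h replicate 2 the value was 0.32 (adjusted p = 0.544). The call was also lost without any 80 h array (adjusted p from 0.0575 to 0.115), any 102 h array (0.0514 to 0.0547), or 8 h replicate 2 (0.0513). From 80 h to 102 h the difference was 0.59 ± 0.31 (limma adjusted p = 0.205), although the arrays of those times did not overlap. Between 8 h and 30 h the FUS3 difference was 0.55. Leaving out 30 h replicate 2 made it 1.24 (adjusted p = 0.0337), and leaving out replicate 1 made it -0.14. Each of these fits leaves 1 array at 30 h and takes its spread from the other times, so the early difference depends on which 30 h array is kept.

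FUS1 encodes a membrane protein of cell fusion and is widely used as a reporter of the pheromone response. Its signals were 50.4, 45.1 and 51.1 at 8 h, 97.6 and 43.4 at 30 h, 145.5, 103 and 88.3 at 60 h, 100.5, 79.8 and 97.5 at 80 h, and 79.1, 82.0 and 82.0 at 102 h. All arrays from 60 h on were above the 8 h arrays, and the 2 arrays of 30 h lay far apart. FUS1 was 0.73 ± 0.26 higher at 102 h than at 8 h on the log2 scale (limma adjusted p = 0.034, n = 3 each), a 1.66-fold difference. The call held in 21 of 28 other settings and was lost without any single 8 h or 102 h array, with adjusted p from 0.0562 to 0.0874. Without all 3 arrays of low 5′ signal it was kept, at 0.76 (adjusted p = 0.0284). At 60 h FUS1 was 0.75 ± 0.29 above 30 h (limma adjusted p = 0.072), and without the 3 arrays of low 5′ signal the value was 0.44 (adjusted p = 0.381).

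**Figure D3:**
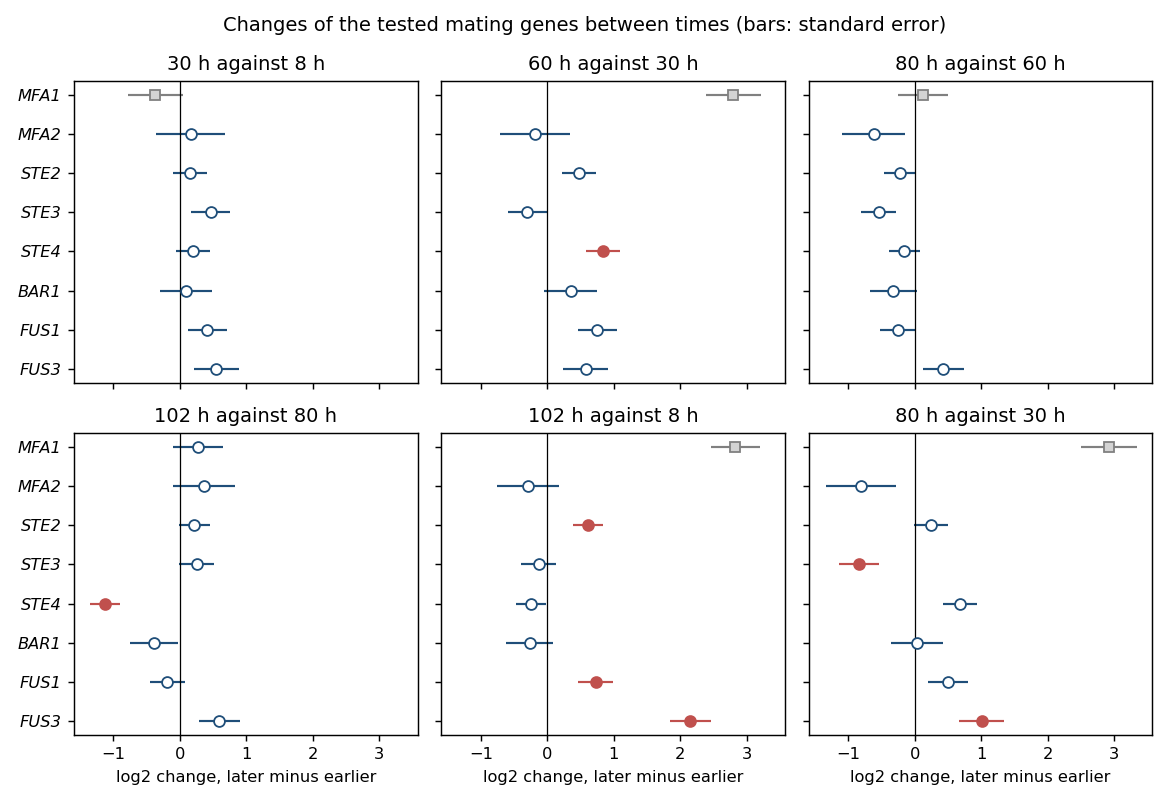
log2 change, later minus earlier time, of the 8 tested genes in each of 6 comparisons, with bars for the standard error of the limma fit. Red points passed at adjusted p under 0.05, open points did not, and grey squares are MFA1 values given without a test. At 102 h against 8 h, FUS3 at 2.15 is the tested gene farthest to the right.

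Counts over the 7 tested genes other than MFA1 were read against all 5338 probe sets tested. The F-test over the 5 times passed for 3 of the 7, STE4, FUS1 and FUS3 (limma adjusted p = 0.0011, 0.013 and 4.7e-04), against 68.5% of all probe sets. From 30 h to 60 h, 1 of 7 rose and 0 fell, against 28% of all probe sets in either direction (16.2% higher and 11.7% lower). From 80 h to 102 h, 1 fell and 0 rose, against 15.9% (7.59% higher and 8.36% lower). At 102 h against 8 h, 3 were higher and 0 lower, against 50.2% (21.6% higher and 28.6% lower). Between 30 h and 80 h, 1 rose and 1 fell, against 30.6% (15.5% higher and 15.1% lower). As shares of the 7 genes these counts are 42.9% for the F-test, 14.3%, 14.3%, 42.9% and 28.6%. A single gene is 14.3% of the 7, so no count is read as more or fewer than the share of all probe sets. At 102 h against 8 h all 3 calls were higher, which is 42.9% beside 21.6% higher over all probe sets.

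At 30 h against 8 h, limma called 0 of the 7 genes, against 0.244% of all probe sets (0.112% higher and 0.131% lower), and 0 had an unadjusted p under 0.05. At 80 h against 60 h it also called 0, against 20.3% (9.42% higher and 10.9% lower), and again 0 had an unadjusted p under 0.05. On the authors' scale the latter count was 1, FUS3, at 0.98 (adjusted p = 0.0286). That scaling moved the median of all tested probe sets by 0.29 in this comparison. The median log2 change of the 7 genes was 0.20, 0.47, -0.25 and 0.22 for the comparisons of neighbouring times in order. It was -0.13 from 8 h to 102 h and 0.24 from 30 h to 80 h. Over all tested probe sets these medians were -0.04, 0.05, -0.04, -0.04, -0.09 and 0.01.

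The genes whose course was most like that of MFA1 were found from the root mean square difference of log2 signals over the 14 arrays, each gene centred on its own mean. The 5 closest were APT2 at 0.521, NRG1 at 0.522, INO1 at 0.558, HXT5 at 0.568 and YGR079W at 0.571. APT2 encodes an adenine phosphoribosyltransferase-like protein and NRG1 a repressor of glucose-repressed genes. INO1 encodes inositol-3-phosphate synthase and HXT5 a hexose transporter of slowly growing cells. The median of this difference over 5290 genes was 1.44.

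Since these genes were picked for likeness to MFA1, their courses are a description. INO1 went from 327 at 8 h and 599 at 30 h to 2829 at 60 h, 3110 at 80 h and 2706 at 102 h. For NRG1 the means were 226, 337, 1113, 1700 and 1559 in time order. APT2 gave 152, 156, 557, 673 and 563. The other two differed from MFA1 among the late times: HXT5 went from 1153 at 60 h to 760 and 736, and YGR079W from 407 and 360 to 639 at 102 h. None of the tested mating genes was as close to MFA1. FUS3 came nearest at 0.818, then FUS1 at 1.05, STE2 at 1.15 and STE4 at 1.30. BAR1, STE3 and MFA2 lay at 1.46, 1.55 and 1.63, farther from MFA1 than the median gene.

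**Figure D4:**
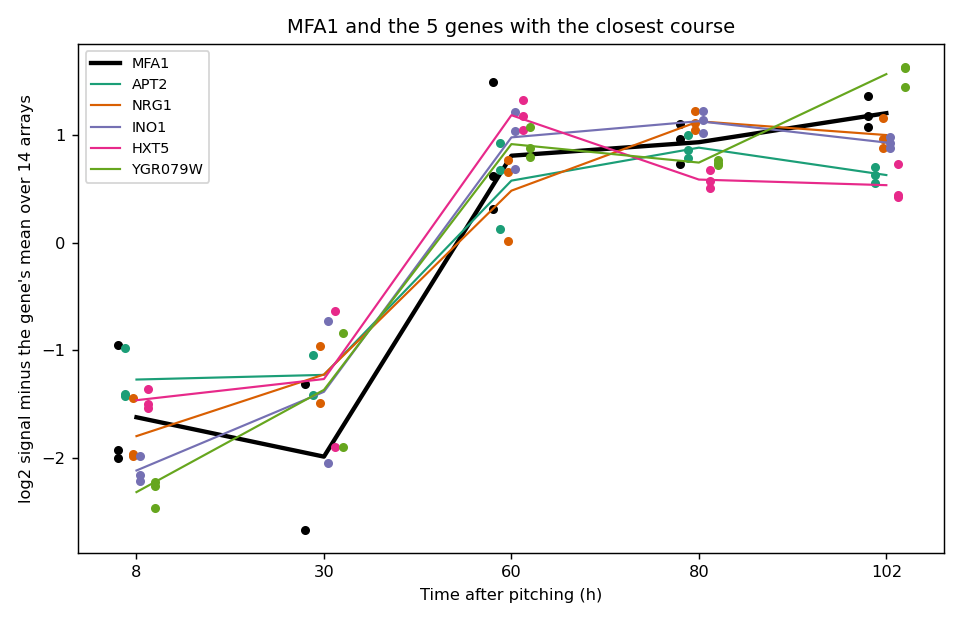
log2 signal minus the gene's mean over 14 arrays, by time after pitching in hours, for MFA1 and the 5 genes with the closest course. Points are arrays and lines join time means. All 6 genes lie below their own mean up to 30 h and above it from 60 h on, and the 30 h arrays of MFA1 lie far apart.

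The wider pathway was described with 8 lists of genes, which were drawn up with earlier results of these data known. Their counts are descriptions, to be read beside the share of all tested probe sets called. At 102 h against 8 h that share was 21.6% higher and 28.6% lower, and from 30 h to 60 h it was 16.2% higher and 11.7% lower. With so few genes in a list, no count is particular to it. The calls of RAM1, STE24, RCE1, AFB1, SST2 and IME2 at 102 h against 8 h were kept when the 3 arrays with low 5′ signal were left out. Those of HO and PRM2 rest on values below background at 102 h and are descriptions.

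Of 7 a-specific genes, 6 were tested beside MFA1. At 102 h 2 of the 6 were higher than at 8 h and 0 lower, with a median log2 change of -0.22 (0.04 without the 3 arrays). These 2 were STE2 and AGA2, the adhesion subunit of a-agglutinin. AGA2 also rose from 30 h to 60 h by 1.57 ± 0.51 (log2 ± SE, limma adjusted p = 0.034), a call kept in 19 of 28 other settings. The AGA2 value was 0.95 without the 3 arrays, 1.77 without 30 h replicate 1 and 1.38 without 30 h replicate 2. Its call was lost without either 30 h array and without 60 h replicate 1 or 2 (limma adjusted p 0.0812 and 0.0852 for the 60 h arrays). It was also lost with arrays centred on their median (0.0833), in fits of 2 times alone (0.0618) and with the ratio of 5′ to 3′ signal in the fit (0.0508). STE6, the exporter of a-factor, rose from 30 h to 60 h by 0.60 ± 0.21 (limma adjusted p = 0.048). That call was kept in 12 of 28 other settings, with adjusted p from 0.0093 to 0.382, and the value was 0.26 without the 3 arrays.

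Of 5 alpha-specific genes, 3 were tested, and 0 were higher and 1 lower at 102 h than at 8 h. With arrays centred on their median the count was 1 higher and 0 lower, so its direction depends on the scaling, and without the 3 arrays it was 1 higher and 1 lower. The lower gene was AFB1, which encodes a barrier protein for a-factor, at -1.11 ± 0.39 (log2 ± SE, limma adjusted p = 0.032). Its call was kept in 20 of 28 other settings. It was lost on the authors' scale (adjusted p = 0.0524), with centred arrays (0.10), in the fit that included the ratio of 5′ to 3′ signal (0.0861), without 8 h replicate 1 or 2 (0.0989 and 0.0671) and without 102 h replicate 2 or 3 (0.125 and 0.0639). SAG1, the alpha-agglutinin gene, rose from 30 h to 60 h by 0.87 ± 0.23 (limma adjusted p = 0.013). It was 0.60 without the 3 arrays (adjusted p = 0.0528) and 0.66 without 30 h replicate 2 (0.167).

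The alpha-factor genes were at or near background: MF(ALPHA)1 passed the threshold on 0 of 14 arrays and MF(ALPHA)2 on 4. Signal above background was thus seen for genes specific to a cells and for some specific to alpha cells. HMRA1, named here after its values were seen, gave 873 to 1756 on all 14 arrays. Its sequence is shared with the a allele at MAT, and signals of the 2 cannot be told apart. HMRA2, also named after its values were seen, gave 1077 to 2660 on all 14 arrays. HMLALPHA1, from the same list, gave 0.66 to 25.1, passed the threshold on 2 of 14 arrays and was not tested. The probe sets of HMRA2 and HMLALPHA1 are of the shared type, which can read other sequences as well. Which sequences they read was not checked, so no mating type is read from these signals.

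Of 10 haploid-specific genes, 8 were tested. From 30 h to 60 h, 4 rose and 0 fell, with a median log2 change of 0.60, and without the 3 arrays 1 rose and the median was 0.38. From 80 h to 102 h, 0 rose and 3 fell, where 7.59% of all tested probe sets rose and 8.36% fell. The 3 were STE4, FAR1 and HO. HO was below background on every 102 h array and entered the tests only through its earlier times, so its fall is a description. With arrays centred on their median 0 rose and 2 fell, and on the authors' scale 0 rose and 3 fell. FAR1, which holds cells in G1 in response to pheromone, was 1.50 ± 0.23 higher at 80 h than at 30 h (log2 ± SE, limma adjusted p = 5.2e-04), a call kept in 28 of 28 other settings. HO, the endonuclease of mating-type switching, was above background on 2 of 3 arrays at 8 h and on 0 of 3 at 102 h. It was at least 1.16-fold higher at 8 h. The fit gave an adjusted p of 0.0092 (limma), which rests on values below background and is a description. With the floor raised to the background threshold it was 0.274.

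The list of the signalling core held 15 genes, all tested. At 102 h against 8 h, 2 were higher and 3 lower, with a median of 0.15, and without the 3 arrays 5 were higher and 4 lower. SST2, which switches the G protein off, was higher by 0.92 ± 0.21 (log2 ± SE, limma adjusted p = 0.0030). KSS1, a MAP kinase related to Fus3, was 1.44 ± 0.33 higher at 80 h than at 30 h (limma adjusted p = 0.0053). MCM1, a transcription factor for mating-type genes and cell-cycle genes, rose from 80 h to 102 h by 1.67 ± 0.28 (limma adjusted p = 0.0027). These 3 calls were kept in 28 of 28 other settings. MCM1 had been lower at 80 h than at 30 h, with a log2 change of -1.20 ± 0.32 (limma adjusted p = 0.012). At 102 h it differed from 8 h by 0.43 ± 0.28 (limma adjusted p = 0.225).

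Of 17 genes induced by pheromone or acting in fusion, 15 were tested. At 102 h against 8 h, 2 were higher and 5 lower, with a median of -0.37. With arrays centred on their median the count was 2 higher and 2 lower. PRM4, a pheromone-regulated gene, was 1.64 ± 0.30 higher at 80 h than at 30 h (log2 ± SE, limma adjusted p = 0.0015), a call kept in 28 of 28 other settings. PRM1, which acts in fusion of the membranes, was below background on all 30 h arrays and above it on 2 of 3 at 80 h. Its mean was at least 1.28-fold higher at 80 h, and it entered the tests only through its brighter times. The fit gave an adjusted p of 0.031 (limma), which rests on values below background at 30 h and is a description. It was 0.349 with the floor at the background threshold, 0.126 with centred arrays and between 0.0543 and 0.139 without any single 30 h or 80 h array. PRM2 was at least 1.59-fold higher at 8 h than at 102 h, where it was below background on every array. PRM2 also entered the tests only through its brighter times, and its call is a description. Its adjusted p was 0.015 (limma) and became 0.110 with the floor at the background threshold, 0.0673 with centred arrays, 0.0578 without 8 h replicate 1 and 0.0721 without 102 h replicate 3.

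Of 8 genes for a-factor maturation and export, 1 was higher and 3 lower at 102 h than at 8 h, with a median of -0.34, so that 4 of 8 were called beside 50.2% of all tested probe sets. RAM1, a farnesyltransferase subunit, fell by 1.43 ± 0.18 (log2 ± SE, limma adjusted p = 4.1e-05). The one that was higher, named here after its values were seen, was RAM2, the partner subunit of Ram1, by 0.52 ± 0.14 (limma adjusted p = 0.0076). STE24, a protease that trims the precursor, fell by 1.17 ± 0.15 (limma adjusted p = 4.1e-05), and RCE1, another such protease, by 1.00 ± 0.27 (limma adjusted p = 0.0070). RAM1, STE24 and RCE1 passed in 28 of 28 other settings, while on the authors' scale 0 of the 8 were higher and 4 lower. From 30 h to 60 h 2 of the 8 rose and 0 fell. These were STE6 and, also named after its values were seen, AXL1, a further protease of the precursor, by 0.83 ± 0.26 (limma adjusted p = 0.031). Without the 3 arrays 0 rose and 2 fell. Farnesylation and Rce1 serve other proteins as well, among them Ras.

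Of 3 genes for alpha-factor maturation, 1 was lower at 102 h than at 8 h, and 2 without the 3 arrays. STE13, a dipeptidyl aminopeptidase, was lower at 80 h than at 30 h, with a log2 change of -0.93 ± 0.20 (limma adjusted p = 0.0039), and the adjusted p was 0.0593 without 30 h replicate 2. KEX2, the protease that first cuts the alpha-factor precursor, rose from 60 h to 80 h by 0.71 ± 0.20 (limma adjusted p = 0.026), or 0.54 without the 3 arrays (adjusted p = 0.133). The KEX2 call was also lost without 60 h replicate 1 or 2 and 80 h replicate 1 or 2, with adjusted p from 0.0624 to 0.118.

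Of 10 genes of mating type and entry into meiosis, 7 had a single-gene probe set and 6 were tested, with 1 higher and 1 lower at 102 h than at 8 h. IME2, a kinase of early meiosis, fell by 1.66 ± 0.30 (log2 ± SE, limma adjusted p = 5.2e-04). UME6, a regulator of early meiotic genes, was 0.91 ± 0.27 higher at 80 h than at 30 h (limma adjusted p = 0.022). Without 30 h replicate 2 the UME6 value was 0.43 (adjusted p = 0.340), and the call was also lost without 80 h replicate 2 or 3 (0.0666 and 0.0526). MATALPHA1, MATALPHA2 and HMLALPHA2 were not analysed here.

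**Figure D5:**
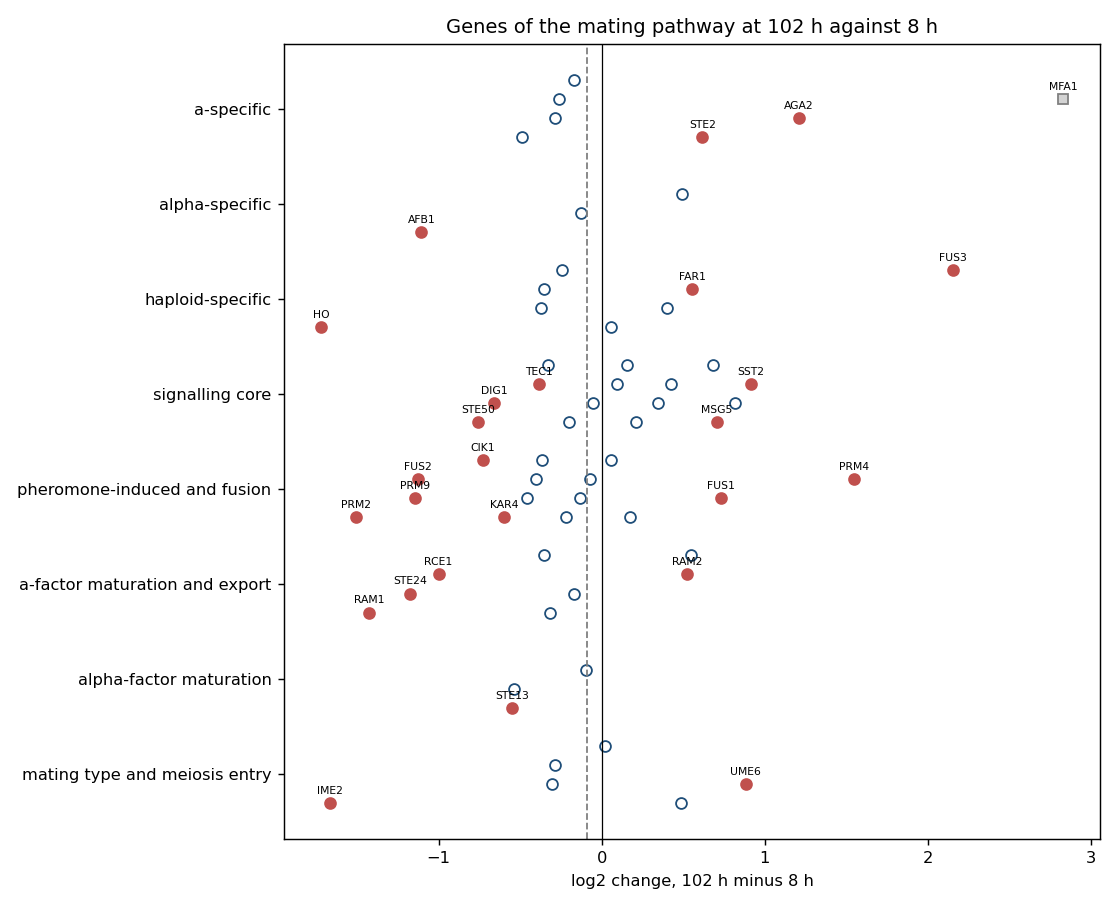
log2 change at 102 h against 8 h of each tested gene in the 8 lists, with 1 row per list. Red named points passed at limma adjusted p under 0.05, open points did not, the grey square is MFA1, given without a test, the dashed line at -0.09 is the median of all tested probe sets, and vertical offsets within a row only separate points. Among tested genes FUS3 lies farthest to the right, and RAM1, STE24 and RCE1 lie left of -0.99. HO and PRM2 were below background at 102 h, so their points depend on the floor.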

How the data were processed

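Transcript levels of lager yeast strain CB11 were read on 14 single-colour Affymetrix Yeast Genome arrays. The authors deposited 1 table of all arrays, whose values are linear signal intensities, 1 for each probe set. The software was GCOS 5.0, per the submitters' processing notes, and the scaling target and summary method are not given in the sources used here. All columns of samples were used. Gene names came from the platform annotation and the RefSeq table for assembly R64, from which no coordinates were taken.

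Signals were quantile normalized between arrays. Values under the median of the dimmer part of the probe sets (5.58 to 5.65) were raised to it, and log2 was taken. A probe set was tested where at least 2 arrays of some time passed the background threshold, which left 5338. limma 3.58.1 in R 4.3.3 fitted the 5 times over all 14 arrays with an intensity trend. The F-test and 6 comparisons were adjusted by Benjamini-Hochberg over all tested probe sets, with a threshold of 0.05. MFA1 was tested from 80 h to 102 h alone. A gene below background on all arrays of a time is given a lower bound against that threshold. The steps were tested on simulated data.

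The members and lists were chosen with earlier results of these data known. Beside all members, the text names up to 3 genes per list with the largest change past the test in any comparison, and the 5 genes closest to MFA1. No 2 arrays held identical values. Replicates were taken from the labels. Same-numbered arrays of different times deviated together, at a correlation above 0.1, in 4 of 26 pairs, so the numbers were not taken as pairs. The number of arrays limits the precision, and no interval from counts applies. Other settings were the authors' scale, centring, floors, filters, no trend, fits of 2 times alone, a replicate block, a stricter threshold, the 5′ to 3′ ratio, probe set choice and leaving out arrays. Leaving out the 3 arrays and the list values under other settings were compared after earlier results were known.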

Additional observations from a re-analysis of the deposited data

How the results depend on the processing

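Across 28 other settings, tested values of single members kept their side of the threshold and, where called, their direction in 1141 cases, gained a call in 18 and lost one in 45, with 0 reversed. Of 990 values not past the threshold in either setting, 40 differed in sign. FUS3 at 102 h against 8 h and the fall of STE4 from 80 h to 102 h passed in all 28. The count of members called moved as follows. On the authors' scale it was 1 from 60 h to 80 h and 4 from 30 h to 80 h. That scale moved the share of higher calls over all probe sets from 46.4% to 86.4% and from 50.7% to 84.6% in these comparisons, and from 47.6% to 7.98% for 102 h against 80 h. With arrays centred on the S. cerevisiae median the count from 30 h to 80 h was 1. Fits of 2 times alone gave 0 from 30 h to 60 h and 2 from 80 h to 102 h. At a threshold of 0.01 the counts were 0 from 30 h to 60 h, 1 from 8 h to 102 h and 0 from 30 h to 80 h. Without the 3 arrays of low 5′ signal, 60 h against 30 h gave 0. With the replicate number as a block it gave 2, FUS1 at 0.77 (limma adjusted p = 0.045) being added. STE3 was lost under the block at 80 h against 30 h (adjusted p = 0.071), where STE4 was gained (0.040). Leaving out 1 array at a time gave counts of 0 to 1 between 8 and 30 h, 0 to 3 between 30 and 60 h, 1 to 3 between 8 and 102 h, 0 to 3 between 30 and 80 h, and 3 to 4 in the F-test. The causes were not tested. A block for chip batch was not run, because the array descriptions used here carry no chip entries. BAR1 and STE3 lie nearest to background by their medians, which limits what can be read from them. FUS3 at 8 h and MFA1 on some early arrays were also near the threshold, which limits the sizes of their rises.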
